A study of Mus musculus with 18 samples.

Results

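Headless mouse embryos of E10.5, a mid-gestation stage, were compared by RNA sequencing between 2 homozygous genotypes, Del(i9-13) and Del(i9-13):Hoxb13hd. Each had 3 libraries, together 6 of the 18 libraries of the study, and they were chosen by the genotype and stage in their labels. Both groups carry Del(i9-13), read here from its name as a deletion in the HoxB cluster between Hoxb9 and Hoxb13, so that hd is the labelled difference between them. The sources used here do not spell out the letters hd or say what that allele does to the transcript or the protein. Homozygous Hoxb13hd and wild type embryos of the same stage, 3 libraries each, gave the hd difference in the absence of the deletion and shared the statistical fit. Mutants were littermates of wild type embryos, per the labels, and all E10.5 libraries were ribo-depleted and stranded. A replicate may be 1 embryo or a pool, which the labels leave unsaid, so p-values refer only to the spread among these libraries, part of which may be technical.

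Hox genes encode homeodomain transcription factors that are switched on in the order of their place in the cluster and give body levels their identity. Hoxb13 is the most 5′ gene of HoxB and is active late, in the tail bud, where genes of group 13 are known for slowing the extension of the axis. The tail bud grows from progenitors of spinal cord and mesoderm that are kept by Wnt and Fgf signals, and mice without a working Hoxb13 have longer and thicker tails.

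Totals of the 6 libraries ran from 22.2 to 25.7 M counts. Gm53, a gene between Hoxb9 and Hoxb13, had 0 counts in all 6 libraries and 371 to 1076 in each of the other 6 E10.5 libraries, in keeping with the labelled deletion in both groups. Mir196a-1, in the same interval, had few counts anywhere, 0 to 2 in the 6 libraries and 5 to 10 in the others. Del(i9-13) replicate 1 stood apart from the rest. Chi-square over degrees of freedom, computed from its counts against those of replicates 2 and 3, was 51.1 and 34.8, against 10.3 between replicates 2 and 3 and 9.73 to 19 among the Del(i9-13):Hoxb13hd libraries. Marker genes of liver bud and visceral endoderm summed to 2416 CPM (counts scaled to equal library size) in it and to 338 to 430.9 CPM in the other 5 libraries. Xist was high (526 to 699 CPM) in Del(i9-13) replicates 1 and 3 and in Del(i9-13):Hoxb13hd replicates 2 and 3. The remaining library of each group expressed Y-linked genes. The sexes were thus balanced, and the replicates of a group did not all come from a single sample. These markers do not tell apart the libraries of a group in which Xist was high.

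Few of the genes passed the threshold between the genotypes, and a gene that did not pass is not shown to be unchanged. Of 17202 genes tested, 156 passed an adjusted p of 0.05 and are called below (0.907% of the genes tested), 94 higher (0.546%) and 62 lower (0.36%) in Del(i9-13):Hoxb13hd. In all 156 the 3 libraries of one group lay beyond the 3 of the other, which was the case for 20.3% of all genes tested. Most changes were small: the median absolute log2 change of the called genes was 0.645, and 51 of them changed by at least 1 on that scale, 23 higher and 28 lower. The 123 called protein-coding genes (82 higher, 41 lower) had a median absolute change of 0.52. The 20 called pseudogenes, of 481 tested (4.16%, against 0.857% of 14346 protein-coding genes), had one of 5.25. Some of these pseudogenes had 0 counts over a whole group, so the size of their change is uncertain. Over all genes tested the median log2 change was -0.02. At an unadjusted p under 0.05 there were 2768 genes.

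How many genes were called rested on single libraries. Without Del(i9-13) replicate 1 the count was 1453 (1115 higher, 338 lower), 154 of them among the 156. With any other of the 6 libraries left out it was between 58 and 84. Of the 156 calls, 53 (23 higher, 30 lower) held whichever of the 6 was left out, and 69 were lost on leaving out any of the 6 other than Del(i9-13) replicate 1. Base composition moved with the groups too. The median GC content of the longest transcript was 49.3% over the genes tested, 52.1% in genes called higher and 44.9% in genes called lower, and offsets that follow GC in each library left 95 calls, 43 higher and 52 lower, 90 of them shared with the 156. Offsets that follow transcript length gave 257, 125 higher and 132 lower. Both were chosen after seeing the data. The part of base composition in single results was not tested beyond these offsets.

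**Figure D1:**
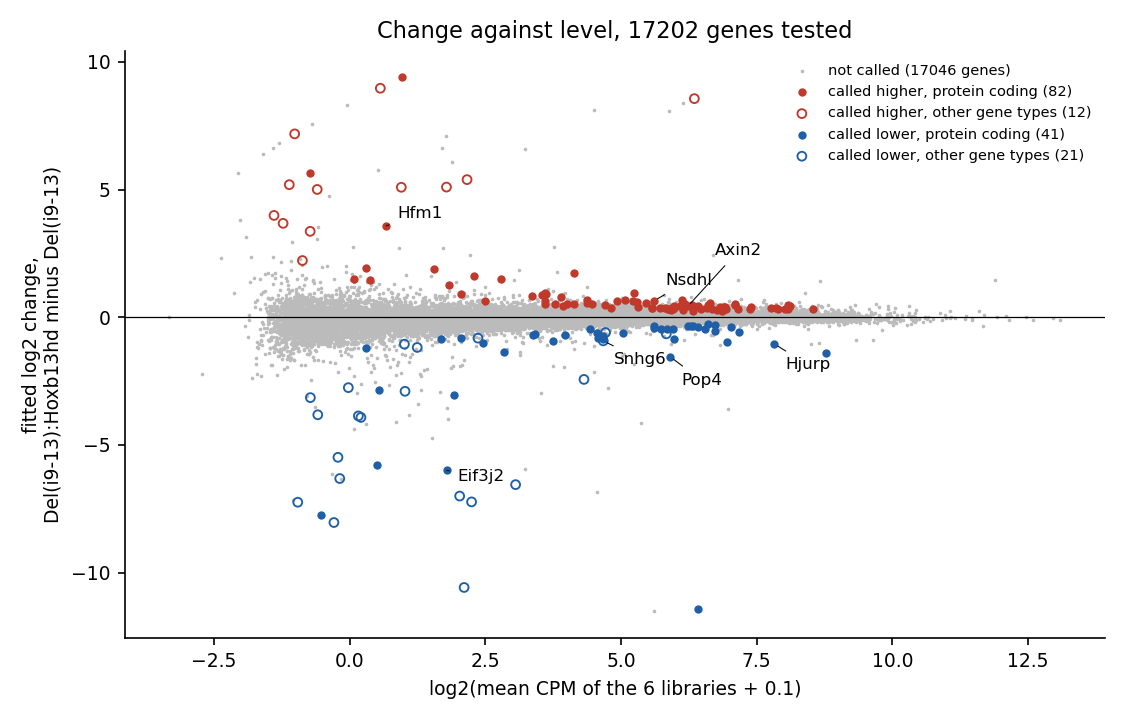
Fitted log2 change (Del(i9-13):Hoxb13hd minus Del(i9-13)) against the log2 of the mean CPM of the 6 libraries plus 0.1, 1 point per gene tested, with called genes in red (94 higher) and blue (62 lower), filled for protein-coding genes and open for other types. Most called genes at high levels lie close to 0, with a few far from it in both directions, and many of the largest values belong to genes of low level or to open symbols.

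Hoxb13 itself was at similar levels in both genotypes. It had 10.8, 5.89 and 12.2 CPM in Del(i9-13) and 11.3, 12 and 9.90 CPM in Del(i9-13):Hoxb13hd. The groups overlapped, and Del(i9-13) replicate 2 was the lowest library. The fitted log2 difference was 0.20 with a 95% interval of -0.79 to 1.20 (adjusted p 0.865), and an exact two-sided permutation test of log2(CPM + 0.1) gave p = 0.7, where 3 against 3 libraries cannot go below 0.1. Without the deletion the gene was nearly silent, at a mean of 0.434 CPM in wild type and 0.051 CPM in Hoxb13hd. The gene lies at chr11:96194316-96197447 (mm10).

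None of the other 11 HoxB genes tested was called, and 5 of them had positive values. Hoxb1, a gene of the 3′ end of the cluster, had 4.17, 3.71 and 4.14 CPM in Del(i9-13) and 6.63, 6.28 and 6.43 CPM in Del(i9-13):Hoxb13hd. The groups did not overlap, and the log2 difference of 0.69 ± 0.15 (SE) just missed the threshold (adjusted p 0.0525). Hoxb9, which the deletion brings next to Hoxb13, had 59.3, 50.3 and 52.3 CPM in Del(i9-13) and 72.9, 70.2 and 66.6 CPM with hd, also without overlap (log2 0.37, adjusted p 0.11). Without Del(i9-13) replicate 1 both were called higher. The remaining HoxB genes ran from -0.24 (Hoxb3os) through -0.22 (Hoxb3), -0.20 (Hoxb4), -0.18 (Hoxb5os), -0.08 (Hoxb2), -0.05 (Hoxb7), 0.05 (Hoxb5) and 0.13 (Hoxb8) to 0.34 (Hoxb6).

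Hox genes of groups 9 to 13 in the other clusters were not called: 15 of 17 tested were positive, with a median log2 of 0.26 against -0.02 over all genes. That median rested on single libraries, at 0.01 without Del(i9-13) replicate 2, 0.48 without replicate 1 and 0.42 without replicate 3. Hoxc13 had 1.04, 0.136 and 0.253 CPM in Del(i9-13) and 1.41, 1.40 and 1.26 CPM in Del(i9-13):Hoxb13hd (log2 1.47 ± 0.53, adjusted p 0.189). Its levels did not overlap and spread over a wide range in Del(i9-13), and it was called without Del(i9-13) replicate 1. Hoxd12 had 7.17, 2.63 and 7.39 CPM against 10.2, 9.87 and 10.1 CPM (log2 0.81, adjusted p 0.288). Hoxa13 was at 4.45, 0.317 and 5.32 CPM against 4.47, 4.37 and 5.38 CPM, and Hoxd13 at 12.2, 6.16 and 16.7 CPM against 11.5, 11.7 and 13.7 CPM, both with overlap. In all 4 of these genes the lowest library was Del(i9-13) replicate 2, as for Hoxb13. Without it the log2 value was -0.05 for Hoxa13 and -0.23 for Hoxd13. In bulk RNA, fewer cells of a type and less RNA per cell cannot be told apart.

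The published preference of HOXB13 protein is for DNA close to CCAATAAA or CTCGTAAA. Promoter windows of 300 bases (250 before to 50 after a start, RefSeq, GRCm38.p6) were available for 96 of the 156 called genes, and both strands were searched. CCAATAAA was in 2 of 59 genes called higher (3.39%), 1 of 37 called lower (2.7%), 113 of 11935 genes tested (0.947%) and 1.12% of all 32851 windows. CTCGTAAA was in 0.131% of all windows and in no called gene. The 3 matching promoters are shown because they are the called genes with that motif at their start, as the 250 bases before the start, 5′ to 3′ on the strand of the gene, with the motif or its reverse complement in capitals. The lines are Tigar (chr6:127109553-127109802, minus strand), Wdr6 (chr9:108578714-108578963, minus strand) and Zfp619 (chr7:39517516-39517765, plus strand).
Tigar: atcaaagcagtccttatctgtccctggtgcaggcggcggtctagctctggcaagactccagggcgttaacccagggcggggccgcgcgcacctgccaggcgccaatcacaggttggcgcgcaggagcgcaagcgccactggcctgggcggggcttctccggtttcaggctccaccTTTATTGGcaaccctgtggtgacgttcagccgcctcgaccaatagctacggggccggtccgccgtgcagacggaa
Wdr6: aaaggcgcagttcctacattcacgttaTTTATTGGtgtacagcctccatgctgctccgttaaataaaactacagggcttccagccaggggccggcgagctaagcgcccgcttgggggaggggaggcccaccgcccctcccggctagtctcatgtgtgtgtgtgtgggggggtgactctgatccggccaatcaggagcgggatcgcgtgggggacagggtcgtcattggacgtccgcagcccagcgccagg
Zfp619: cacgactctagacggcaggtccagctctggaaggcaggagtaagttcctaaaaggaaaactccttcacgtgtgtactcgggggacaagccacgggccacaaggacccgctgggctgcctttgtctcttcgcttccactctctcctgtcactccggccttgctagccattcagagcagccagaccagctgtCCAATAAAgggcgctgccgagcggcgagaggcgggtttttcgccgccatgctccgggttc
Tigar, a phosphatase that lowers glycolysis, rose from 13.6, 13.3 and 12.6 CPM to 19.4, 18.3 and 18.6 CPM (log2 0.51, adjusted p 0.0216). Wdr6, a WD repeat protein that takes part in tRNA methylation, rose from 250, 214 and 217 CPM to 297, 312 and 331 CPM (log2 0.47, adjusted p 0.0103). The zinc finger gene Zfp619 fell from 12.6, 12.8 and 13.5 CPM to 9.55, 7.80 and 7.21 CPM (log2 -0.66, adjusted p 0.033). On leaving out 1 of the 6 libraries, the call of Wdr6 was lost in 3 cases, that of Zfp619 in 4 and that of Tigar in 5. A match describes the letters of the window and is not a site of binding.

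Genes of sterol and fatty acid supply were the pathway list with the most calls. Of 28 tested members, the most of any list, 4 were called, all higher (14.3% of the list against 0.907% of all genes tested). Positive values were found in 23 (82.1% against 46.7%), and the median log2 change was 0.18. In 15 of the 28 the libraries of the groups did not overlap (53.6% against 20.3% of all genes tested). All gene lists were chosen with earlier results of these data known, so such shares describe the lists and test nothing. Nsdhl, an enzyme of late cholesterol synthesis, had 40.3, 36.4 and 36.9 CPM in Del(i9-13) and 63.8, 59.4 and 54.9 CPM in Del(i9-13):Hoxb13hd. Every library with hd was above every library without it (log2 0.65 ± 0.09, adjusted p 0.00216). Scd1, the desaturase that makes oleic acid, rose from 109, 111 and 105 CPM to 136, 137 and 131 CPM (log2 0.31, adjusted p 0.0216). The groups were again separate, with a narrow spread in each.

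Cyp39a1, a hydroxylase of oxysterols named after its value was seen, was not on that list and rose by 0.65 on the log2 scale (adjusted p 0.0347), a call lost in 4 of the 6 cases with 1 library left out. Most other enzymes of the pathway were positive by small amounts that did not pass, among them Hmgcs1 (0.19), Sqle (0.19) and Cyp51 (0.19). Insig1, which holds the sterol sensor back in the endoplasmic reticulum, had the lowest value (-0.22, adjusted p 0.263). The call of Nsdhl held whichever of the 6 libraries was left out, and that of Scd1 was lost without any of the 5 other than Del(i9-13) replicate 1. With the GC offsets 3 members were called, and with only the 6 libraries fitted 1 was, Nsdhl. Without Del(i9-13) replicate 1 there were 9, all higher, where 1453 of 17497 genes tested were called, 1115 of them higher. In Hoxb13hd minus wild type the list had a median of -0.03 and 0 of its members differed by the interaction test.

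Axin2, the feedback inhibitor commonly read as a target of Wnt signalling, rose. It had 66.2, 63.2 and 62.1 CPM in Del(i9-13) and 86.5, 86.5 and 84.0 CPM in Del(i9-13):Hoxb13hd, with little spread and no overlap (log2 0.42 ± 0.06, adjusted p 0.00618). The call held with the GC offsets (log2 0.36) and whichever of the 6 libraries was left out. It was lost with limma on log2(FPKM + 0.1) without a filter (adjusted p 0.0641). It was the single call among 21 tested Wnt targets and inhibitors (4.76% against 0.907% of all genes tested). Of the 21, 20 were positive (95.2% against 46.7%), with a median log2 of 0.22 and no overlap in 10 (47.6% against 20.3%). Next by p were Apcdd1, an inhibitor at the receptor (log2 0.38, adjusted p 0.101), and Rnf43, which removes the receptor (0.54, adjusted p 0.137). Without Del(i9-13) replicate 1, 6 members were called, all higher, where 1453 of 17497 genes tested were called, 1115 of them higher. The called genes Frzb, Daam2 and Ptk7 also act in Wnt signalling and were picked out after their values were seen. Frzb, a secreted inhibitor, rose from 40.5, 28.2 and 37.0 CPM to 48.5, 56.7 and 52.5 CPM (log2 0.58, adjusted p 0.0414). Daam2 (log2 0.67, adjusted p 0.0436) and the co-receptor Ptk7 (0.34, adjusted p 0.0426) were also higher. The calls of Frzb, Daam2 and Ptk7 were lost on leaving out any of the 6 libraries other than Del(i9-13) replicate 1.

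Genes of the tail bud and its progenitors were not called. Of 21 tested, 18 were positive, with a median log2 of 0.32 (0.21 without Del(i9-13):Hoxb13hd replicate 1). Epha1 had the smallest p, with 8.33, 6.79 and 5.40 CPM in Del(i9-13) and 10.6, 11.0 and 11.5 CPM in Del(i9-13):Hoxb13hd (log2 0.69, adjusted p 0.0977), without overlap. T, which marks mesodermal progenitors, had a log2 value of 0.52 with an SE of 0.43, and Fgf8 one of 0.18. Of 10 timing genes (Cdx, Lin28 and Gdf11), 9 were positive and none was called, with a median of 0.19 (0.10 without Del(i9-13) replicate 2). Gdf11, which ends trunk formation, had 65.8, 62.6 and 66.2 CPM against 74.8, 80.1 and 76.5 CPM (log2 0.25, adjusted p 0.132), again without overlap. Spinal cord progenitor genes, 0 of 16 called, had 14 positive values and a median of 0.30. Markers of head and brain, of which 8 of 16 passed the filter on low counts, moved with them: 7 of the 8 were positive, with a median of 0.25 (0.15 without Del(i9-13):Hoxb13hd replicate 3) and 0 calls. Their summed level was 37.3, 39.3 and 36.05 CPM in Del(i9-13) and 39.04, 40.8 and 42.4 CPM in Del(i9-13):Hoxb13hd, with overlap, and the part of kept head tissue was not tested. Olig3, a factor of dorsal spinal cord progenitors outside that list, was called: it rose from 9.29, 7.83 and 7.30 CPM to 14.9, 15.9 and 14.3 CPM (log2 0.88, adjusted p 0.0436). That call was lost on leaving out any of the 6 libraries other than Del(i9-13) replicate 1 (adjusted p up to 0.176), and with the GC offsets (0.0682) and the Xist covariate (0.0655).

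**Figure D2:**
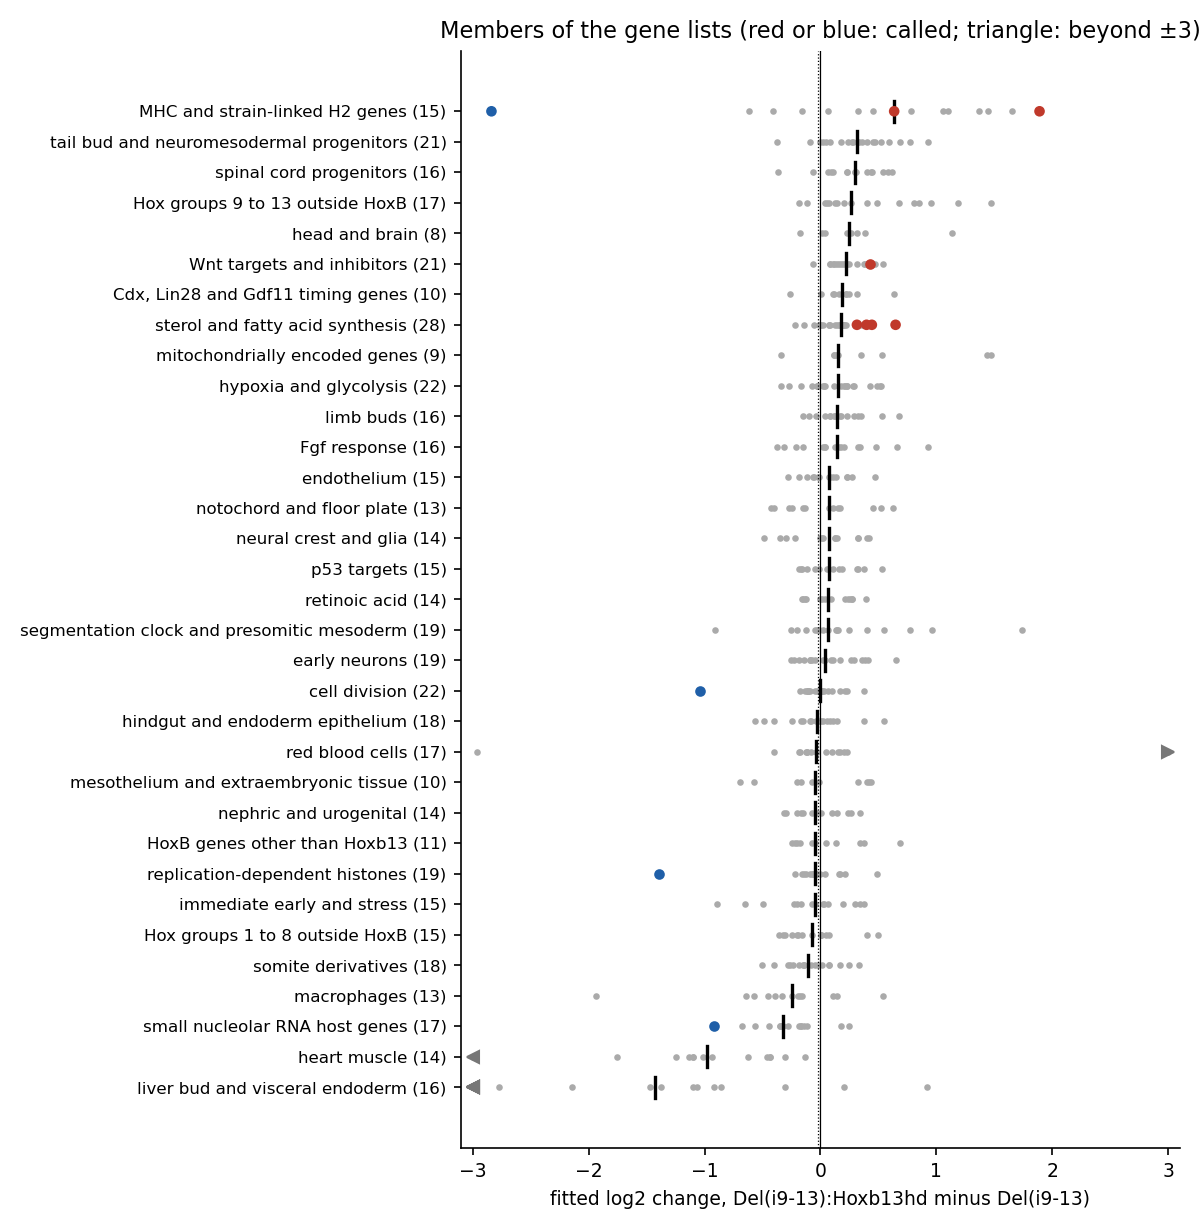
Fitted log2 change of every tested member of the gene lists, 1 row per list with the number of members tested, bars at the median, red and blue points for called members and triangles for values beyond 3 either way. Wnt, tail bud, spinal cord and posterior Hox lists have medians of 0.22 to 0.32 with at most 1 call each (posterior Hox 0.01 without Del(i9-13) replicate 2), the sterol list holds 4 calls, and heart and liver lists have the lowest medians with 0 calls (liver bud -0.06 without Del(i9-13) replicate 1).

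Among genes called higher that had a name of their own and a mean of at least 1 CPM in a group, the largest change was in Hfm1, a DNA helicase of meiosis. It had 0.28, 0.136 and 0.253 CPM in Del(i9-13) and 2.26, 1.87 and 4.17 CPM in Del(i9-13):Hoxb13hd (log2 3.58 ± 0.39, adjusted p 0.000454). Arntl2, a circadian transcription factor, followed with 0.40, 0.724 and 0.295 CPM against 1.90, 1.64 and 1.82 CPM (log2 1.92). Hddc3, a phosphohydrolase, was better expressed, at 7.05, 8.24 and 8.74 CPM against 30.4, 20.4 and 29.1 CPM (log2 1.73 ± 0.15, adjusted p 0.000101). Levels of all 3 genes were separate between the groups by a wide margin. P4ha3, a subunit of collagen prolyl hydroxylase, rose from 2.28, 1.58 and 3.21 CPM to 6.99, 7.84 and 6.99 CPM (log2 1.62, adjusted p 0.0133). Rbpj, the DNA-binding factor of Notch signalling, rose from 29.0, 22.6 and 25.5 CPM to 50.01, 45.7 and 53.1 CPM (log2 0.95 ± 0.14, adjusted p 0.00618). Wild type stood at 45.6 CPM, near the libraries with both alleles. The others named by size were Gsg1 (log2 1.5), the kainate receptor gene Grik3 (1.49), Aldh3b2 (1.46), Tac2, which encodes neurokinin B (1.25), periplakin (Ppl, 0.93), the testis linker histone H1f6 (0.92) and Rprm, a p53-induced cell cycle inhibitor (0.83). The calls of Hfm1, Hddc3 and Rbpj held whichever of the 6 libraries was left out. P4ha3 was lost without replicate 2 of either group, Arntl2 in 3 of the 6 cases, and each of the 7 others in 4 or 5.

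Among the genes called lower, Pop4, a protein subunit of RNase P, had 75.2, 98.6 and 92.9 CPM in Del(i9-13) and 32.3, 32.4 and 26.8 CPM in Del(i9-13):Hoxb13hd (log2 -1.54 ± 0.11, adjusted p 1.22e-05). Hjurp, the chaperone that loads the centromeric histone, had 334, 278 and 303 CPM against 150, 145 and 150 CPM (log2 -1.04 ± 0.11, adjusted p 0.000371). It was the single call among 22 cell division genes (4.55% against 0.907% of all genes tested), whose median was -0.01. Arrdc3, an arrestin-domain gene, had 158, 163 and 170 CPM against 83.2, 84.4 and 86.5 CPM (log2 -0.95 ± 0.09, adjusted p 0.000151). In these 3 genes the spread within a group was far smaller than the gap between groups, and the calls held under each of the 25 alternative analyses. Trmo, a tRNA methyltransferase, fell from 10.6, 8.47 and 11.4 CPM to 3.40, 4.06 and 4.34 CPM (log2 -1.37). Its call was lost without Del(i9-13):Hoxb13hd replicate 1 (adjusted p 0.0609). Srp54a, a subunit of the signal recognition particle with close copies, had 6.33, 7.97 and 5.44 CPM against 0.929, 0.937 and 0.521 CPM (log2 -3.03, adjusted p 0.0414). The claudin gene Cldn34c1 had 84 counts over the Del(i9-13) libraries and 0 in each library with hd, at least 28.2-fold lower when 3 counts over the group are taken as the floor. The calls of Srp54a and Cldn34c1 were lost on leaving out any of the 6 libraries other than Del(i9-13) replicate 1, as were those of the next 4 genes. Scg5 (log2 -0.99), the lipoyltransferase gene Lipt2 (-0.93), Fam71e1 (-1.21) and the antisense transcript H3f3aos (-1.05) completed the list. The sources used here do not say whether counts of H3f3aos were kept to its strand.

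Host genes of small nucleolar RNAs were mostly lower by value. Of 17 tested, 15 were negative, with positive values in 11.8% against 46.7% of all genes tested. In 12 the groups did not overlap (70.6% against 20.3% of all genes tested). The median log2 was -0.32, with 1 call (5.88% against 0.907%). Snhg6 had 29.7, 32.4 and 37.5 CPM in Del(i9-13) and 18.4, 16.6 and 17.5 CPM in Del(i9-13):Hoxb13hd (log2 -0.92 ± 0.10, adjusted p 0.000454). Snhg1 had 133, 93.5 and 146 CPM against 78.2, 82.7 and 71.8 CPM (log2 -0.68, adjusted p 0.0666), also apart but not called. Snhg5 (-0.32, adjusted p 0.0822), Snhg14 (-0.35, adjusted p 0.0912) and Gas5 (-0.33, adjusted p 0.143) were lower by less. With the GC offsets the median was -0.28, and in the hd difference without the deletion it was 0.17.

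Genes of the major histocompatibility complex moved in both directions. Of 15 tested, H2-Q7 and H2-Q4 were called higher and H2-T24 lower (20% against 0.907% of all genes tested). The median log2 was 0.64. H2-Q7 had 1.28, 0.543 and 1.77 CPM in Del(i9-13) and 5.13, 4.68 and 3.65 CPM in Del(i9-13):Hoxb13hd (log2 1.89 ± 0.30, adjusted p 0.00859). H2-Q4 had 4.73, 3.80 and 4.39 CPM against 6.59, 6.87 and 6.64 CPM (log2 0.64, adjusted p 0.0485), a call lost on leaving out any of the 6 libraries other than Del(i9-13) replicate 1. H2-T24 fell from 2.56, 2.49 and 2.03 CPM to 0.398, 0.156 and 0.434 CPM (log2 -2.84, adjusted p 0.00624), and H2-Bl, a pseudogene in some strains that is outside the list, changed alike (log2 -2.75, adjusted p 0.00486). These genes differ between mouse strains and have close copies, and the labels give no strain, so their counts are uncertain. By position, 7 of 540 windows of 5 Mb held at least 3 calls each, 29 of the 156 in all, a description with no test. The window chr17:35000001-40000000 (mm10) had 7 calls among 70 genes tested (10%). The window chr6:135000001-140000000 had 5 among 25 (20%), Ddx47, Gsg1 and Fam234b higher and Emp1 and H4f16 lower. The window chr7:100000001-105000000 had 5 among 61 (8.2%), Clpb, Inppl1 and P4ha3 higher and Lipt2 and Il18bp lower.

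Several large changes fell on genes with near-identical copies, where reads can be assigned to either copy and the values are uncertain. Eif3j2, a copy of the gene for a translation initiation factor subunit, had 7.17, 6.65 and 5.99 CPM in Del(i9-13) and 0, 0.078 and 0.217 CPM in Del(i9-13):Hoxb13hd (log2 -5.99). Eif3j1 moved the other way, from 33.0, 30.3 and 29.1 CPM to 49.5, 49.1 and 42.8 CPM (log2 0.61, adjusted p 0.00421). The pseudogene Pcna-ps2 had 14.8, 17.0 and 17.0 CPM against 0.0442, 0.273 and 0.174 CPM (log2 -6.55, adjusted p 6.25e-08, the smallest of all genes). Gm4353 fell from 2.52, 2.63 and 2.66 CPM to 0.0442, 0.078 and 0 CPM. Gm12666, with 0 counts over the Del(i9-13) libraries and 263 with hd, rose at least 87-fold over a floor of 3 counts. Gm4815 rose in the counts (log2 5.10), whereas the deposited FPKM values had the opposite sign (means of 0.134 and 0.082, adjusted p 0.726 in limma), so its direction is uncertain. The histone gene H4f16 had 488, 782 and 635 CPM against 249, 261 and 216 CPM (log2 -1.39 ± 0.15, adjusted p 0.000566). It was the single call among 19 histone genes (5.26% against 0.907% of all genes tested), whose median was -0.05. In all, 34 called genes had no name of their own, 14 higher and 20 lower.

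**Figure D3:**
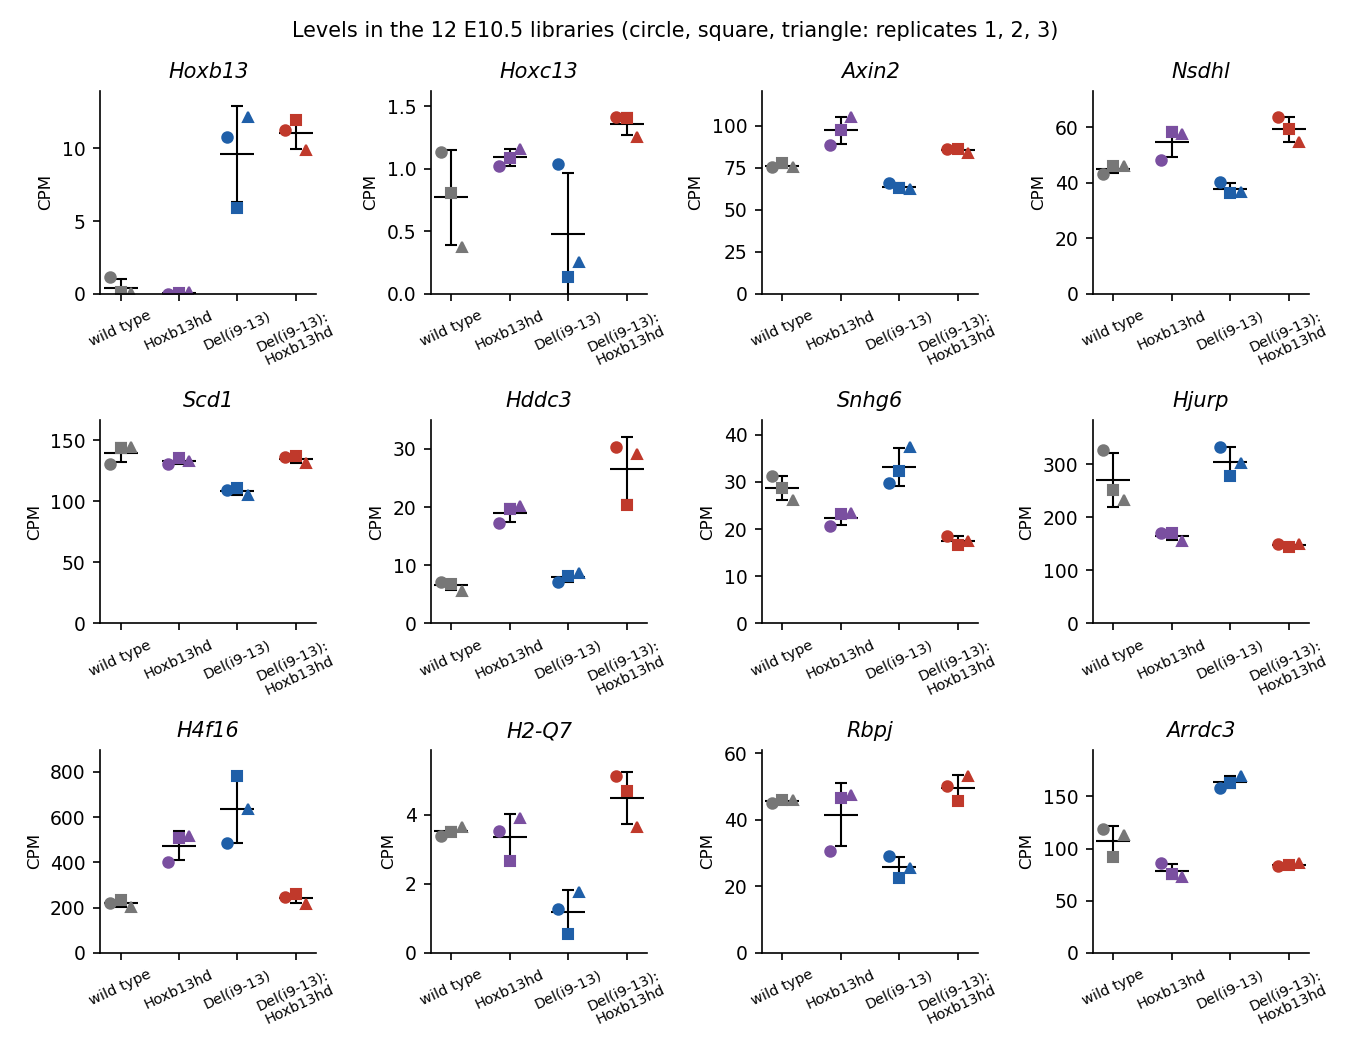
CPM of 12 genes in the 12 E10.5 libraries, points for the libraries and bars for mean ± SD of the 3 libraries of a group, each axis starting at 0. Hoxb13 is expressed in both groups with the deletion and overlaps between them. For each of the other genes shown the libraries of Del(i9-13) and Del(i9-13):Hoxb13hd are separate, by a narrow gap in Hoxc13.

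Tissues that a headless embryo can hold in varying amounts were compared through their markers. Heart muscle genes were negative in 14 of 14 tested, with a median log2 of -0.98 and 0 calls, and their summed level was 250.3, 398.6 and 529 CPM in Del(i9-13) and 211, 169.3 and 299.9 CPM in Del(i9-13):Hoxb13hd, with overlap. Without Del(i9-13) replicate 3 that median was -0.38, and without Del(i9-13):Hoxb13hd replicate 2 it was -0.61. Liver bud and visceral endoderm genes had 0 calls of 16 and a median of -1.42, which was -0.06, with 6 of 16 positive, without Del(i9-13) replicate 1. Apob had 650, 22.8 and 18.1 CPM against 26.8, 14.4 and 16.4 CPM, so that Del(i9-13) replicate 1 alone set its value of -3.59. Macrophage genes had 0 calls of 13 and a median of -0.24, which was -0.07 without Del(i9-13) replicate 1, 0.0053 without Del(i9-13):Hoxb13hd replicate 2 and -0.41 without Del(i9-13):Hoxb13hd replicate 3. Aif1 was at or below 0.634 CPM in every one of the 6 libraries. Red blood cell, endothelial, early neuron, neural crest and hindgut lists had medians between -0.04 and 0.08 and 0 calls. Of 22 hypoxia and glycolysis genes none was called (median 0.15), and the glycolytic enzyme gene Gapdh had the smallest p among them (log2 0.52, adjusted p 0.0525). Limb bud, somite, presomitic mesoderm, nephric, notochord, Fgf response, retinoic acid, p53 and immediate early lists also had 0 calls, with medians from -0.11 to 0.15. Whether unequal amounts of heart or liver bud had a part in the called genes was not tested.

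The hd allele was also compared without the deletion, in Hoxb13hd and wild type embryos, which share no library with the comparison above. There 517 genes were called (3.01%), 244 higher (1.42%) and 273 lower (1.59%), with the spread estimated over all 12 libraries. The count was 57 and 110 without wild type replicates 1 and 3, 51 and 71 without Hoxb13hd replicates 2 and 3, 1138 without Del(i9-13) replicate 1 and between 269 and 315 without Del(i9-13) replicate 3 or any Del(i9-13):Hoxb13hd library, so the overlap below rests on those libraries too. Of the 156 genes, 42 were also called there, 29 in the same direction (18 higher, 11 lower; 18.6% of the 156 and 5.61% of the 517) and 13 in the opposite direction. Hddc3 rose by 1.73 with the deletion and 1.54 without it, Erf by 0.44 and 0.32, and Axin2 by 0.42 and 0.35. Hjurp fell by 1.04 and 0.71 on the log2 scale, Arrdc3 by 0.95 and 0.46, Tcea1, a transcription elongation factor, by 0.86 and 0.59, and the chaperone gene Dnajc3 by 0.40 and 0.33. H2-Bl (-2.75 and -1.79), A930015D03Rik (-2.90 and -2.87), Gm6368 (-3.82 and -4.78) and Gm14131 (at 0 counts in both groups without hd) were called in both as well. By mean log2 level, Hoxb13hd libraries were nearer to Del(i9-13):Hoxb13hd than to Del(i9-13) for 120 of the 156 genes, and wild type libraries for 88. In Hoxb13hd minus wild type, 101 of the 156 had the same sign and 55 the opposite one. The 156 were picked for a difference between the groups with the deletion, and the shares over all genes were not computed.

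The interaction test, which asks whether the hd difference itself depended on the deletion, called 90 genes (0.523%), 47 with a higher and 43 with a lower hd difference when the deletion was present. Of the 156 genes, 34 were among them. The 90 became 174 without Del(i9-13) replicate 1, 40 to 50 without Del(i9-13) replicate 3, any Del(i9-13):Hoxb13hd library or wild type replicate 1 or 3, and 53 without Hoxb13hd replicate 3. Pop4 was lower with hd in the presence of the deletion (log2 -1.54) and higher without it (1.01, adjusted p of the interaction 1.28e-06), as were H4f16 (-1.39 and 1.11) and Bcl2l12, a gene of the Bcl-2 family (-0.82 and 0.51). Emp1 fell with the deletion (-0.84) and had 0.30 without it, which was not called. Frzb rose with the deletion and fell without it (0.58 and -0.51). Hfm1 (3.58 and -1.1), Rbpj (0.95 and -0.14) and Eif3j1 (0.61 and -0.35) rose with it and had negative values without it that were not called. Mean levels show the pattern for Pop4: wild type 29.9, Hoxb13hd 60.1, Del(i9-13) 88.9 and Del(i9-13):Hoxb13hd 30.5 CPM. The pseudogene Pcna-ps2 had means of 0.287, 18.8, 16.3 and 0.164 CPM in the same order. The labels give no strain, so strain differences among the genotypes cannot be told apart from an effect of hd here. Their part in these values was not tested. None of the tested members of the Hox, Wnt, tail bud, sterol or tissue lists was called in the interaction, and H4f16 was the single list member that was.

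**Figure D4:**
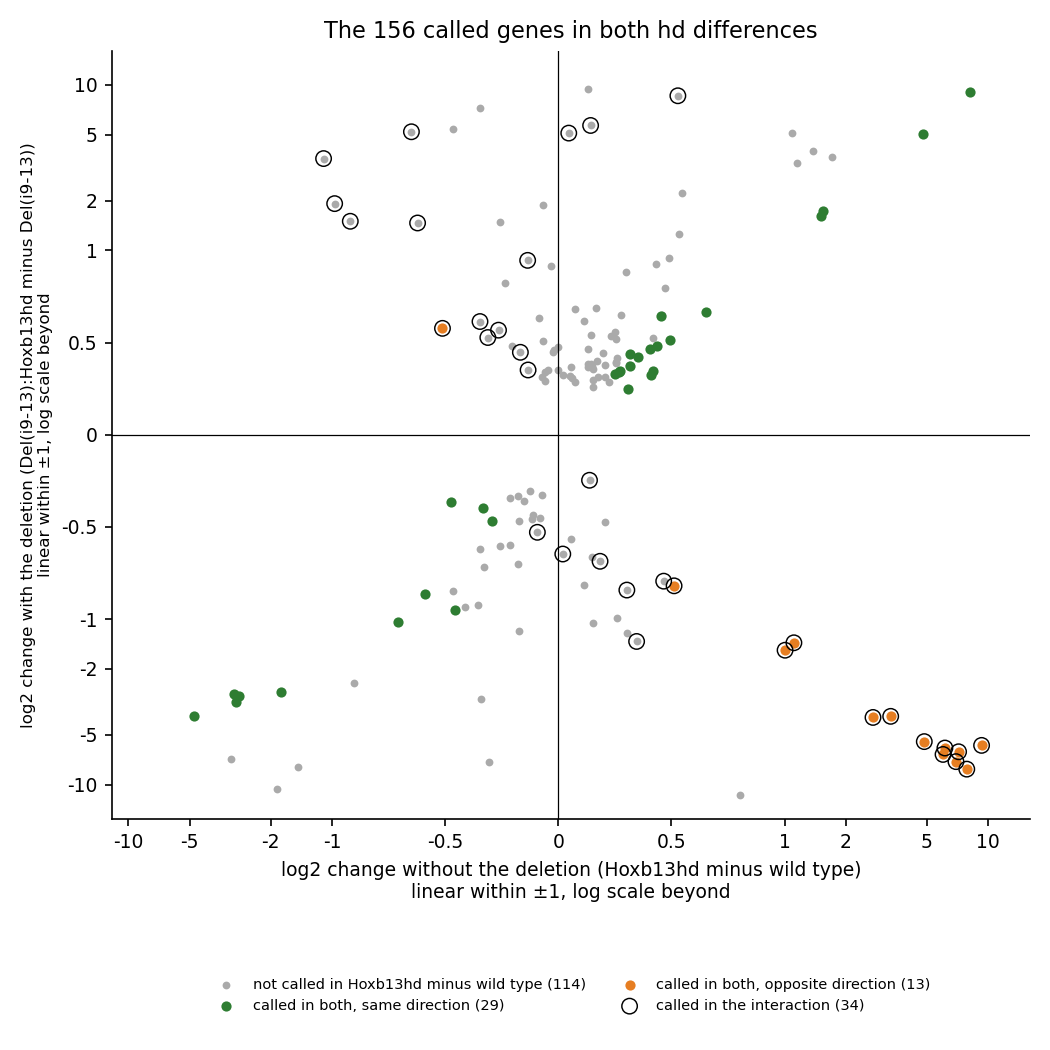
Log2 change with the deletion (vertical) against that without it (horizontal) for the 156 called genes, axes linear within 1 of 0 and logarithmic beyond, green for the 29 genes called in both in the same direction, orange for the 13 in opposite directions and rings for the 34 called in the interaction. All 13 genes in opposite directions carry a ring, and 12 of them lie in the lower right, lower with the deletion and higher without it.

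Of the 156 calls, 26 held under every one of the 25 alternative analyses in which the gene was tested, and 13 of those have a name of their own. They were Nsdhl, Hddc3, Hfm1 and Rbpj, which rose, and Pop4, Eif3j2, Arrdc3, Hjurp, Bcl2l12, Snhg6, H4f16, Tcea1 and H2-Bl, which fell. Tcea1 had 76.9, 84.6 and 81.4 CPM in Del(i9-13) and 44.9, 45.2 and 43.3 CPM in Del(i9-13):Hoxb13hd.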

How the data were processed

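RNA was sequenced from headless E10.5 embryos, and the E9.5 libraries were not used here. Per the submitters' processing notes, cutadapt 1.18, STAR 2.7.10a, Cufflinks 2.2.1 and the mm10 genome were used. The deposited values were raw counts per gene and FPKM per gene. Neither the annotation nor the strand setting behind the counts is stated in these sources.

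Counts of the 12 E10.5 libraries were fitted together with 1 coefficient per group in edgeR 4.0.16 (R 4.3.3), using its robust quasi-likelihood test, TMM scaling and a filter on low counts (at least 10 counts, total at least 15). A gene was called at a Benjamini-Hochberg adjusted p under 0.05, and adjusted p-values in the text come from this test. CPM values were scaled by TMM, and errors after ± are SE. The 6 libraries held 22.2 to 25.7 M counts. The script was tested on simulated data with 50 genes changed at each size. It recovered 52% of 1.5-fold, 80% of 2-fold and 98% of 4-fold changes, and 17 unchanged genes were called. Intervals and floors cover counting or model error only.

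The libraries compared and the gene lists were chosen with earlier results of these data known. Named genes were all HoxB genes and the group 13 genes of the other clusters; in each direction, at most 15 calls of largest size with a mean of at least 1 CPM in a group, no overlap and a name of their own, and the 2 without one each way with the smallest p; called members and up to 4 members of smallest p per list; up to 10 interaction calls each way by the same size rule; and the 10 genes of smallest p called alike in both hd differences. Genes named beside these (window members, further genes of sterol or Wnt biology, promoter matches, and genes of a pathway that did not pass) were chosen after their values were seen. Alternatives used DESeq2 1.42.0, limma 3.58.1 on the deposited FPKM values as log2(FPKM + 0.1) or log2(FPKM + 1), other scalings and filters, an Xist covariate, a replicate block and each library left out. Some genes are not reported here by name.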

Additional observations from a re-analysis of the deposited data

Results flagged for a closer look

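The hd difference itself differed with and without the deletion, by the edgeR interaction test, in the named genes given here, with the interaction as a log2 value (hd difference with the deletion minus that without it). Among genes already described it was -2.55 for Pop4, -2.50 for H4f16, -1.33 for Bcl2l12, -1.15 for Emp1, -1.71 for Trmo, 4.68 for Hfm1, 2.90 for Arntl2, 2.42 for Gsg1, 2.09 for Aldh3b2, 1.08 for Rbpj, 1.09 for Frzb, 0.83 for Fam234b and 0.96 for Eif3j1. Copies and genes at 0 or near it in some groups had very large values, which depend on the prior count: Eif3j2 -12.12, Pcna-ps2 -12.55, Gm4353 -15.06, Gm4815 5.05, Rps3a3 17.15, Hist1h2al 15.81 and Ifi202b 9.88.

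Among genes not yet described, Gchfr, which regulates the first enzyme of tetrahydrobiopterin synthesis, had -3.41. Tmem35b had -1.95, Hebp1, a heme-binding protein gene, -1.62 and the zinc finger gene Zc3h6 -1.26. Plppr1 (2.57), Palmd (1.95) and Grik1, a kainate receptor gene (1.74), had positive values.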

How the results depend on the processing

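The 156 calls (94 higher, 62 lower) became 95 with GC offsets (43 higher), 257 with transcript length offsets (132 lower), 660 with DESeq2 (445 higher, 215 lower) and 76 when only the 6 libraries were fitted (34 higher). limma on FPKM called 148 higher genes with a pseudocount of 0.1, 149 with 1 and 60 without a filter, and 47, 47 and 46 lower. At an absolute log2 change of at least 1 there were 51 (23 higher, 28 lower). Leaving out 1 library gave 58 to 1453 calls, 27 to 1115 higher and 31 to 338 lower. The cause was not tested.

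Same-numbered replicates had correlations of 0.0626, 0.155 and 0.0595, against -0.189 to 0.116 for different numbers, so the numbers were not taken to pair libraries. The replicate block gave 114 calls (62 higher), 107 of them among the 156. With the 6 libraries alone it gave 48 (18 higher, 30 lower), 33 of them among the 156. Olig3 had an adjusted p of 0.058 with the block, and Axin2 0.143 with the block on the 6 libraries alone. Interaction calls were 295 with DESeq2, 47 with limma on FPKM without a filter and 40 to 174 with 1 library left out. Calls of Hoxb13hd minus wild type were 251 with the Xist covariate, 225 with GC offsets, 1240 with DESeq2, 272 and 277 with limma at pseudocounts of 0.1 and 1, 132 without a filter and 51 to 1138 with 1 library left out.

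With 1 library left out, the Hoxb13 difference of log2(CPM + 0.1) ran from -0.054 to 0.46 and its fitted value from -0.059 to 0.40, Hoxb5 from -0.018 to 0.11, Hoxb7 from -0.14 to 0.064, Hoxa13 from -0.049 to 0.97 and Hoxd13 from -0.23 to 0.42. The sign of Hoxb13, Hoxa13, Hoxd13 and Hoxb7 (0.045) turned without the second Del(i9-13) replicate, that of Hoxb5 without the third (-0.0029) and without Del(i9-13):Hoxb13hd replicate 2, and that of Hoxb7 also without Del(i9-13):Hoxb13hd replicate 3. Hoxb5 was -0.0086 with GC offsets. Gm4815 was -0.35 with limma on FPKM without a filter. None of these Hox genes was called. With 22.2 to 25.7 M counts a library, genes under about 1 CPM rest on few reads.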
